A study of Mus musculus with 42 samples.

Results

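Hyaluronan is a long sugar polymer of the joint fluid and of the matrix around synovial fibroblasts, the matrix-making cells of the joint's lining. The genes described here are 10 that make it, cut it or bind it: Tnfaip6, Has1, Has2, Has3, Hyal1, Hyal2, Cd44, Vcan, Hapln1 and Ptx3. Every probe set listed with 1 of these symbols was taken, without regard to its values. A probe set is a group of short probes on the array that together measure 1 transcript. Of the 10 genes, 9 had probe sets of their own, and these came to 24 of the 45037 probe sets tested. Vcan had 8 of them, Cd44 and Hapln1 had 4 each, Has2 and Ptx3 had 2 each, and Tnfaip6, Has1, Has3 and Hyal2 had 1 each. The 2 remaining probe sets are listed with both Naa80 and Hyal1, so neither was read as Hyal1, and both stand outside the counts.

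The study set 42 fibroblast cultures, 1 array each, from female BALB/c mice whose joints had been inflamed by immunisation with cartilage proteoglycan in DDA adjuvant. The mice were TSG-6 knockout (27 arrays) or wild-type (15 arrays). TSG-6 is the secreted protein of the Tnfaip6 gene. Knockout-labelled cultures were treated with TNFa at 5 ng/ml (4 arrays), lipopolysaccharide (LPS) at 200 ng/ml (4), mouse TSG-6 made as a recombinant protein at 120 ug/ml (3), hyaluronan (HA) at 24 ug/ml (4) or TSG-6 and HA together at those doses (4), and 8 were left untreated. Wild-type cultures had 2 arrays for each of these treatments and 5 untreated. Every culture had grown in 10% fetal calf serum for up to 6 passages and was kept overnight in 0.5% serum, and treatment then lasted 12 h. The sources used here do not say how Tnfaip6 was disrupted or whether each culture came from an animal of its own, so the p-values measure only the spread between these cultures.

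As background, hyaluronan is made at the cell surface by 3 synthases, Has1, Has2 and Has3, from activated sugars that the cell prepares in its cytoplasm. Cells hold it through receptors, chiefly CD44, and take it up and cut it with hyaluronidases. Outside the cell it carries proteoglycans such as versican (Vcan), whose grip is fastened by the link protein Hapln1. TSG-6 moves the heavy chains of inter-alpha-inhibitor onto hyaluronan, and pentraxin 3 (Ptx3) binds both TSG-6 and those heavy chains. In joints, inflammation is known to raise TSG-6 and to change the amount and the size of hyaluronan.

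All values are log2 values of the deposited table, in which each probe set is centred on its median over the 42 arrays. A value of 1 therefore stands for a doubling over that median, no value is an absolute level, and levels of different genes cannot be compared. For the same reason the table cannot show whether a marker of synovial fibroblasts was present or absent. A change was called where the limma p-value, adjusted over all 45037 probe sets, was under 0.05, and a fold change is the difference of 2 group means in log2 units ± SE. The arrays of each genotype split into 2 sets with no name in the labels. They are called array sets a and b here (14 and 13 knockout-labelled arrays, 8 and 7 wild-type arrays), and they were found from empty gaps of at least 1 log2 unit in the values. With at least 5 arrays on each side, 23 probe sets had such a gap in knockout-labelled arrays, and 12 of them shared this split. In wild-type arrays 33 of 40 shared it. The 18S ribosomal RNA probe set exceeded 1 on 10 knockout-labelled and 5 wild-type arrays, among them 2 of 4 knockout-labelled arrays with LPS and 2 of 8 untreated ones. All 8 endothelial markers looked at were lower in knockout-labelled than in wild-type cultures, with a mean over the list of -1.52 to 0.24 in untreated knockout-labelled cultures and 4.06 to 4.48 in untreated wild-type cultures.

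In knockout-labelled cultures TNFa raised Cd44, Has1 and Ptx3, LPS raised Has1 and Cd44, and TSG-6, alone or with HA, raised Vcan, Has2, Hapln1 and Cd44. TNFa raised 5 of the 24 probe sets, where 10.1% of all probe sets were called (4.87% higher, 5.19% lower). LPS raised 2 of 24 beside 1.05% of all (0.557% higher, 0.491% lower). TSG-6 raised 9 of 24 beside 3.37% of all (1.61% higher, 1.76% lower), and TSG-6 with HA raised 8 of 24 beside 6.72% of all (2.41% higher, 4.31% lower). In these 4 comparisons none of the 24 was called lower. They share their 8 untreated arrays and are therefore not independent of one another. HA alone changed none of the 24 at the adjusted limma threshold, with 6 at an unadjusted p under 0.05 and 0.262% of all probe sets called.

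The median fold change of the 24 in knockout-labelled cultures was 0.40 with TSG-6 and 0.44 with TSG-6 and HA, beside medians over all probe sets of -0.0045 and 0.017. With TNFa it was 0.083 (0.0090 over all), with LPS 0.27 (0.0043 over all) and with HA 0.16 (0.0026 over all). In wild-type cultures, with 2 treated arrays each, TNFa raised 2 of 24 probe sets, both of Cd44, beside 1.67% of all (0.897% higher, 0.768% lower). No probe set of these genes was called in wild-type cultures with LPS (0.726% of all called), TSG-6 (0.206%, with 0.144% higher and 0.0622% lower), HA (0.0666%) or TSG-6 with HA (0.451%), where 4, 8, 0 and 5 of the 24 had an unadjusted limma p under 0.05. None of the 8 endothelial markers was called with any treatment in knockout-labelled cultures, and of 7 chondrocyte markers Sox9 was lower with TNFa, with TSG-6 and with TSG-6 and HA. Of 8 macrophage markers Csf1r was higher with TNFa (0.84 ± 0.17) and with TSG-6 and HA (0.70 ± 0.17). Of 6 pericyte or smooth muscle markers Acta2 was higher with TSG-6 (1.13 ± 0.30) and with TSG-6 and HA (0.96 ± 0.28), and Cspg4 was lower with TNFa (-0.77 ± 0.16). Of the 12 fibroblast markers Col3a1, Col1a2 and Prg4 were higher and Vim lower with TSG-6 and with TSG-6 and HA, Col3a1 was higher and Vim lower with LPS, and Fn1 and Vim were lower with TNFa. Col3a1 gave 1.17 ± 0.21 with TSG-6, and the fibroblast list averaged 0.085 to 0.49 over the TSG-6 arrays, against -0.22 to 0.21 over the untreated ones. In wild-type cultures the endothelial marker Cldn5 was lower with TNFa, LPS, HA and TSG-6 with HA, Sox9 was lower with TNFa, Cspg4 lower with LPS and Prg4 higher with TSG-6 and with TSG-6 and HA. The part of these cell types in the responses was not tested.

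**Figure D1:**
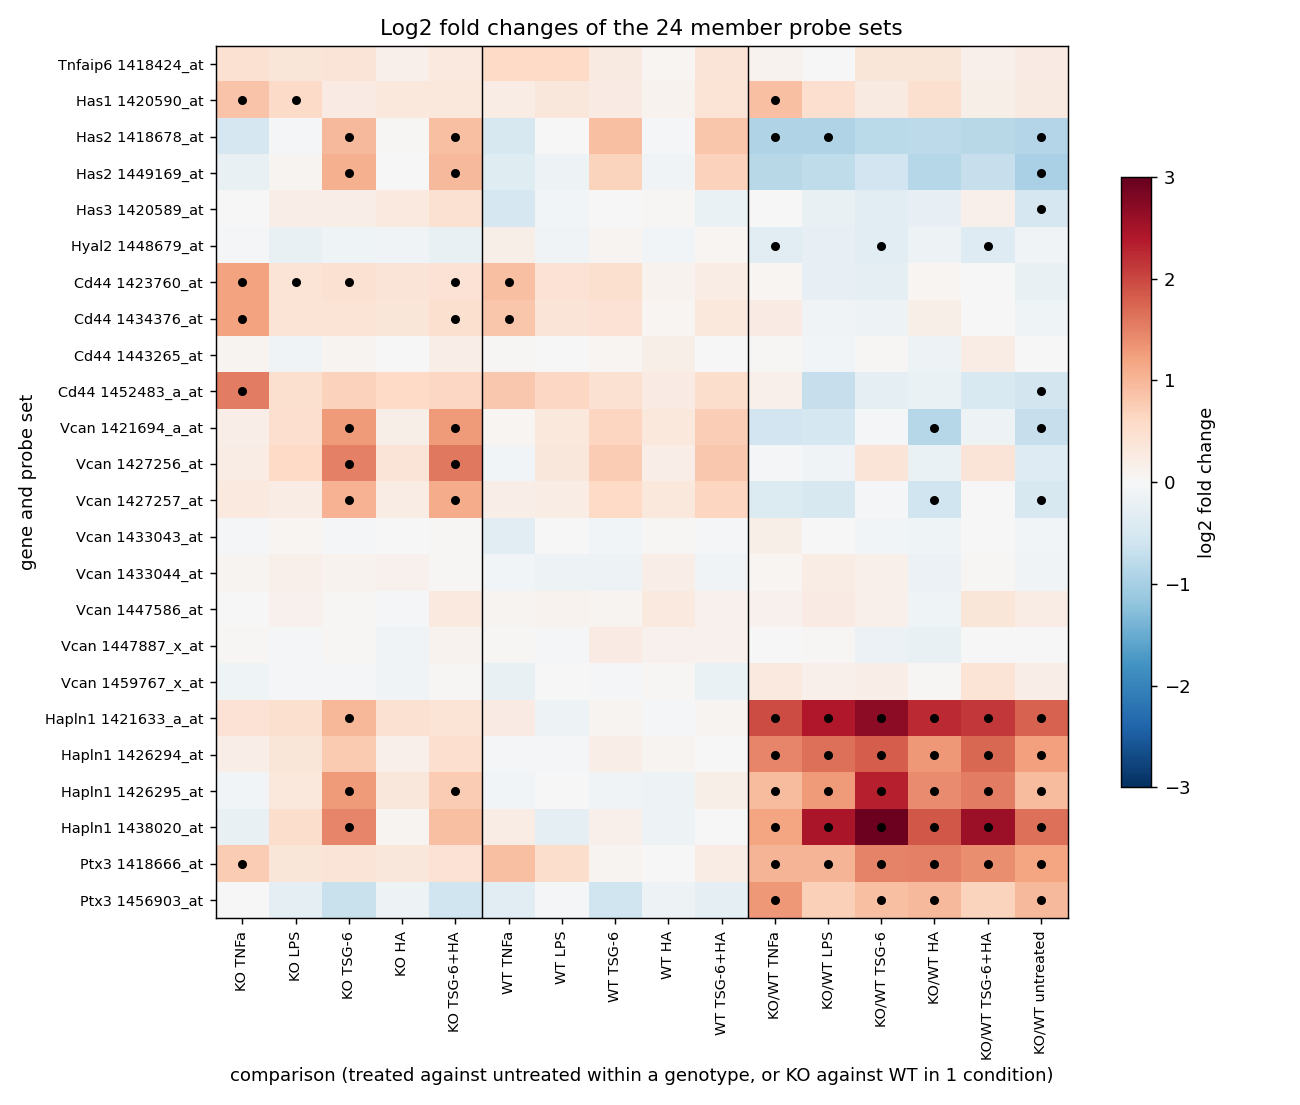
Log2 fold changes of the 24 probe sets (rows) in 16 comparisons (columns), red for higher and blue for lower in the first-named group, with black dots where the adjusted limma p was under 0.05. The left block compares treated with untreated knockout-labelled (KO) cultures, the middle block treated with untreated wild-type (WT) cultures and the right block KO with WT cultures in each condition. The called rises with TSG-6 lie in Has2, Cd44, Vcan and Hapln1, and the 4 Hapln1 rows are higher in KO than in WT cultures in all 6 conditions.

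Tnfaip6, the gene that the knockout disrupts, was measured by 1 probe set, 1418424_at. The sources used here do not place its probes relative to the disruption, so it does not check the labels. Its centred values were 0.13, 0.41, 0.18 and 0.66 in knockout-labelled cultures with TNFa, against -0.41 to 0.25 (median -0.10) in the 8 untreated ones. In wild-type cultures they were 0.45 and 0.014 with TNFa and 0.26 and 0.23 with LPS, against -0.55, -0.48, -0.32, -0.34 and -0.14 untreated. The 4 wild-type values lay above all 5 untreated values, while in knockout-labelled cultures treated and untreated values overlapped. The fold change with TNFa was 0.45 ± 0.17 in knockout-labelled cultures (adjusted p = 0.0807) and 0.60 ± 0.23 in wild-type cultures (adjusted p = 0.323), and with LPS in wild-type cultures it was 0.61 ± 0.23 (adjusted p = 0.498). None of the 25 comparisons called it. By group mean, the order in knockout-labelled cultures from low to high was untreated, HA, TSG-6 with HA, LPS, TSG-6 and TNFa, and no neighbours in that order differed by more than their SD.

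The sequence upstream of Tnfaip6 is shown because this is the gene that the study disrupts and because it holds 3 of the 4 motifs looked for. It is RefSeq's sequence of the 250 bases before the annotated start, read along the gene's + strand, at chr2:52037863-52038112 in GRCm38.p6, with matches in capitals.
Tnfaip6: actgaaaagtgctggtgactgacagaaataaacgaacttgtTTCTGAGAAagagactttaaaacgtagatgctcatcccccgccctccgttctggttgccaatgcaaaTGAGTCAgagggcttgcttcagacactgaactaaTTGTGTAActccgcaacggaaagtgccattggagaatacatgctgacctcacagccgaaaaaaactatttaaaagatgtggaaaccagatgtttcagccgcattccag
The motifs, read on both strands, were GGG and CC around a spacer of 5 bases for NF-kB, TGANTCA for AP-1, TTNCNNAA for C/EBP and TTCNNNGAA for STAT. In the order printed, the capitals mark STAT at bases -209 to -201, AP-1 at -142 to -136 and C/EBP at -108 to -101, counted back from the start, and no match overlaps another. Among 32851 upstream windows of the same length, 7.02% hold the STAT letters, 6.75% the AP-1 letters, 36.8% the C/EBP letters and 45.8% the NF-kB letters. Of the 10 genes, 8 had a window, and Tnfaip6 was the one of these 8 with the AP-1 and the STAT letters. A match of letters describes the sequence and does not show that a factor binds there.

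**Figure D2:**
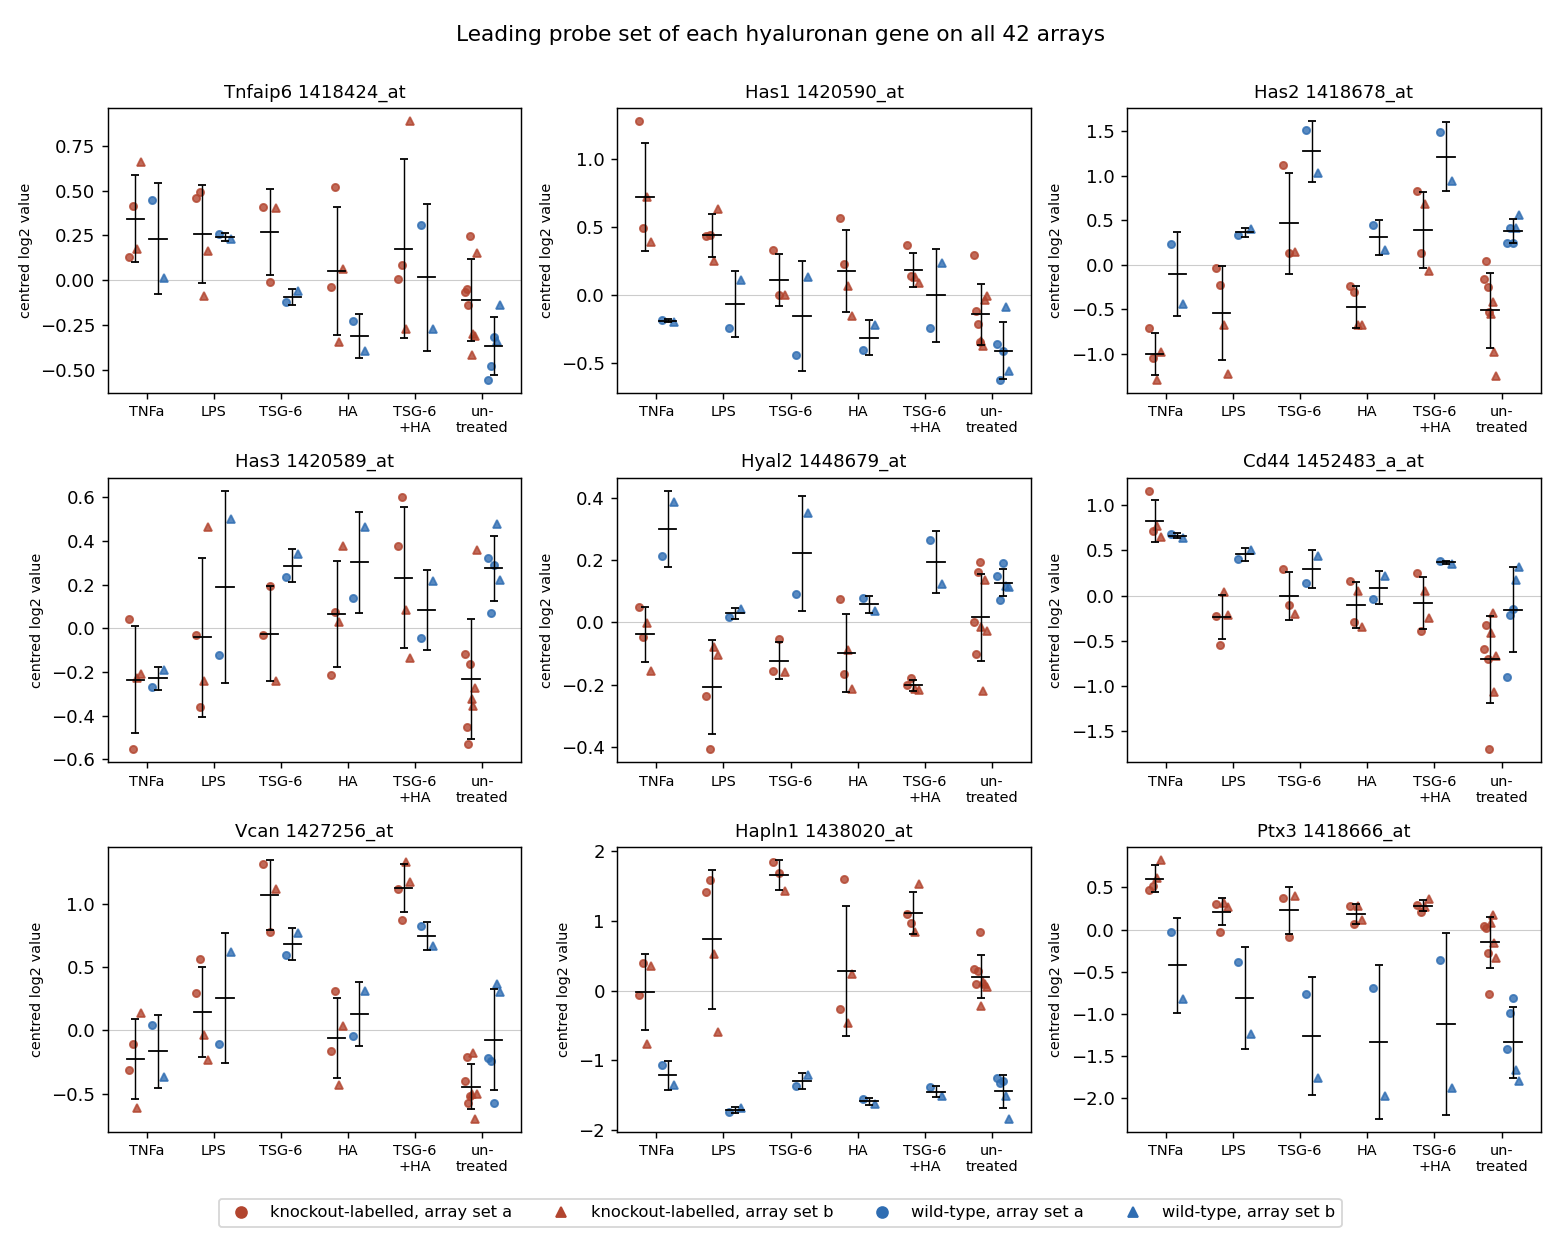
Centred log2 values (vertical axes) of the probe set with the largest SD of each of the 9 genes on all 42 arrays, by treatment (horizontal axes). Red marks are knockout-labelled and blue marks wild-type cultures, circles are array set a and triangles array set b, and bars give the mean ± SD of a group. Cd44 stands highest with TNFa, Vcan highest with TSG-6 and with TSG-6 and HA, and the red and blue marks of Hapln1 do not overlap in any condition.

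Among the synthases, Has1 rose with the 2 inflammatory agents and Has2 with TSG-6, in knockout-labelled cultures. Has1 (1420590_at) stood at 1.27, 0.49, 0.71 and 0.39 with TNFa and 0.43, 0.44, 0.25 and 0.63 with LPS, against -0.37 to 0.29 (median -0.16) untreated. Every TNFa array lay above all 8 untreated arrays, and 1 LPS array lay below the highest untreated one. The rise was 0.86 ± 0.15 with TNFa (1.81-fold, adjusted p = 5.21e-05) and 0.58 ± 0.15 with LPS (1.49-fold, adjusted p = 0.0371). The LPS call was lost without the arrays of high 18S signal (0.52, adjusted p = 0.475) and on leaving out any 1 of 8 arrays, all 4 with LPS among them. In wild-type cultures Has1 stood at -0.18 and -0.20 with TNFa, inside the range of the untreated -0.36, -0.62, -0.41, -0.089 and -0.56, with a fold change of 0.22 ± 0.20 (adjusted p = 1). The difference between the genotypes in the TNFa response, 0.64 ± 0.25 (95% interval 0.14 to 1.14), did not pass the test (adjusted p = 0.524).

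Has2 is the synthase that the mouse embryo cannot do without. With TSG-6 its leading probe set 1418678_at stood at 1.12, 0.13 and 0.15 in knockout-labelled cultures, and with TSG-6 and HA at 0.83, 0.13, 0.68 and -0.072. The 8 untreated cultures ranged from -1.25 to 0.040 (median -0.48). All 3 TSG-6 arrays lay above the untreated ones, and 1 array with the combined treatment fell inside their range. The rises were 0.98 ± 0.24 (1.97-fold, adjusted p = 0.0145) with TSG-6 and 0.90 ± 0.22 (1.87-fold, adjusted p = 0.00672) with TSG-6 and HA. The other Has2 probe set, 1449169_at, gave 1.07 ± 0.24 (adjusted p = 0.00626) and 0.97 ± 0.22 (adjusted p = 0.00326). Both Has2 calls with TSG-6 rested on replicate 1 of the 3 TSG-6 arrays, since without it neither passed, with the leading probe set at 0.65 and the other at 0.92. The call of 1418678_at with TSG-6 and HA was lost without replicate 1 of that treatment.

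Wild-type cultures showed Has2 changes that did not pass, of like size for the leading probe set. The leading probe set stood at 1.51 and 1.03 with TSG-6 and 1.49 and 0.94 with TSG-6 and HA, against 0.25, 0.42, 0.25, 0.42 and 0.56 untreated. All 4 treated values lay above the 5 untreated ones, with fold changes of 0.90 ± 0.30 (adjusted p = 0.635) and 0.84 ± 0.30 (adjusted p = 0.38). Within the wild-type sets, 1 TSG-6 array each, the change with TSG-6 was 1.21 in set a and 0.55 in set b. For 1449169_at it was 1.02 in set a and 0.29 in set b, and with TSG-6 and HA 1.04 and 0.29. The response of the leading probe set differed between genotypes by 0.083 ± 0.38 with TSG-6 (95% interval -0.70 to 0.86), an interval that spans almost a doubling either way. HA alone gave 0.037 ± 0.22 in knockout-labelled cultures (95% interval -0.41 to 0.48). With TNFa the leading probe set was at -0.71, -1.05, -1.29 and -0.98 in knockout-labelled cultures, a fold change of -0.49 ± 0.22 that did not pass (adjusted p = 0.175). In knockout-labelled cultures the group means ran from TNFa at the low end through LPS, untreated and HA to TSG-6 with HA and TSG-6, and the one step larger than the SD of the groups beside it lay between HA and TSG-6 with HA.

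Has3, the third synthase, was called with no treatment. With TNFa in wild-type cultures it stood at -0.27 and -0.19 against 0.32, 0.070, 0.29, 0.48 and 0.22 untreated, and its change of -0.51 ± 0.21, the largest with any treatment, did not pass (adjusted p = 0.446). Both TNFa arrays lay below the 5 untreated ones. The largest change in knockout-labelled cultures was with TSG-6 and HA, where it stood at 0.38, 0.60, 0.086 and -0.13 against -0.53 to 0.36 (median -0.30) untreated. The groups overlapped, and the fold change was 0.47 ± 0.15 (adjusted p = 0.0643). It passed with the array set as a block (adjusted p = 0.0429), although the difference was 0.81 in set a and 0.12 in set b.

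Of the hyaluronidases Hyal1 and Hyal2, only Hyal2 had a probe set of its own, and it was called with no treatment. Hyal2, which sits at the cell surface and makes the first cuts in hyaluronan, was measured by 1448679_at, whose SD over the 42 arrays, 0.17, was the smallest among the leading probe sets. In knockout-labelled cultures it was at -0.20, -0.18, -0.21 and -0.22 with TSG-6 and HA and at -0.24, -0.41, -0.078 and -0.10 with LPS, against -0.22 to 0.19 (median -0.0065) untreated. Every one of these treated values lay below the untreated median. The fold changes of -0.22 ± 0.073 and -0.22 ± 0.073 did not pass (adjusted p = 0.0673 and 0.19). The pair of probe sets listed with both Naa80 and Hyal1 fell with TSG-6 and HA in knockout-labelled cultures, by 0.35 ± 0.088 on the log2 scale for 1419213_at (adjusted p = 0.00925) and by 0.46 ± 0.10 for 1449954_at (adjusted p = 0.00236). Its values for 1419213_at were -0.13, 0.010, -0.095 and -0.021 with TSG-6 and HA, all below the untreated 0.11 to 0.64 (median 0.25). Which of its 2 listed genes the pair measures cannot be told here.

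Cd44, the main hyaluronan receptor, was the member most changed by TNFa in knockout-labelled cultures. Its leading probe set 1452483_a_at stood at 1.16, 0.72, 0.77 and 0.65 with TNFa in knockout-labelled cultures, against -1.70 to -0.19 (median -0.63) untreated, and at 0.68 and 0.64 in wild-type cultures, against -0.90, -0.22, -0.15, 0.17 and 0.32 untreated. All TNFa arrays lay above all untreated arrays of their genotype. In knockout-labelled cultures this probe set rose by 1.53 ± 0.20 (2.89-fold, adjusted p = 4.85e-07), 1423760_at by 1.20 ± 0.095 (2.29-fold, adjusted p = 8.66e-12) and 1434376_at by 1.22 ± 0.12 (2.32-fold, adjusted p = 8.05e-10). In wild-type cultures 1423760_at rose by 0.91 ± 0.13 (1.88-fold, adjusted p = 1.71e-05) and 1434376_at by 0.82 ± 0.16 (1.77-fold, adjusted p = 0.00159), while the leading probe set, at 0.82 ± 0.27, did not pass (adjusted p = 0.176). The 1434376_at call in wild-type cultures was lost without replicate 1 of TNFa. The rise was seen in both array sets, at 1.17 and 1.22 for 1423760_at in knockout-labelled sets a and b and 1.01 and 0.76 in wild-type sets a and b. For the leading probe set these were 1.77 and 1.30, and 1.11 and 0.40. For 1434376_at they were 1.05 and 1.38, and 1.03 and 0.53. Each wild-type set held 1 TNFa array.

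Smaller Cd44 rises came with the other treatments. In knockout-labelled cultures 1423760_at rose by 0.41 ± 0.095 with LPS (adjusted p = 0.0194), 0.45 ± 0.11 with TSG-6 (adjusted p = 0.0104) and 0.44 ± 0.095 with TSG-6 and HA (adjusted p = 0.00255). With TSG-6 and HA 1434376_at rose too, by 0.47 ± 0.12 (adjusted p = 0.00833), a call lost without replicate 1 of that treatment. With HA alone 1423760_at stood at 0.18, -0.10, 0.11 and -0.23 against -0.60 to -0.15 (median -0.39) untreated, and the fold change of 0.38 ± 0.095 did not pass (adjusted p = 0.0842), though it did with the array set as a block (adjusted p = 0.0314). The LPS call was lost without the arrays of high 18S signal (0.46, adjusted p = 0.0947) or without replicate 1 or 3 of LPS, and the TSG-6 call without replicate 1 of TSG-6. Differences between the genotypes in the Cd44 response to TNFa were 0.28 ± 0.16 for 1423760_at (95% interval -0.043 to 0.61) and 0.72 ± 0.34 for 1452483_a_at (95% interval 0.032 to 1.40), neither past the threshold. The fourth probe set, 1443265_at, stayed within 0.22 of no change in all 25 comparisons. Its values correlated with those of the other 3 at Pearson r of 0.026 to 0.209 over the 42 arrays, while those 3 correlated with one another at 0.837 to 0.951, on arrays that share the same treatments and genotypes.

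The Cd44 upstream sequence is shown because its 3 responsive probe sets moved most with TNFa, an agent that acts through NF-kB. It covers the 250 bases before the RefSeq start, on the - strand at chr2:102901666-102901915 in GRCm38.p6, with the match in capitals.
Cd44: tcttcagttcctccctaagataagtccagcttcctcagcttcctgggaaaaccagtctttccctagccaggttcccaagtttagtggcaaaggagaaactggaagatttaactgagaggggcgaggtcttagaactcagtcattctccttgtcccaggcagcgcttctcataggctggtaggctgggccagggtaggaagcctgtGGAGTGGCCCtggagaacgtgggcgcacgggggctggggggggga
The capitals mark the NF-kB letters, found on the opposite strand at bases -45 to -36. Of the 8 windows, those of Cd44, Hyal2 and Vcan hold these letters, as do 45.8% of all windows.

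Vcan, a large proteoglycan that binds hyaluronan through its head domain, rose with TSG-6 and with TSG-6 and HA. Its leading probe set 1427256_at stood at 1.32, 0.78 and 1.12 with TSG-6 and 1.12, 0.88, 1.33 and 1.18 with TSG-6 and HA in knockout-labelled cultures. Untreated ones ranged from -0.70 to -0.18 (median -0.50), so that no treated array came near the untreated range. The rises were 1.52 ± 0.19 (2.87-fold, adjusted p = 2.06e-06) and 1.57 ± 0.17 (2.98-fold, adjusted p = 7.66e-08). Of the other probe sets, 1421694_a_at rose by 1.28 ± 0.18 and 1.29 ± 0.17 and 1427257_at by 1.04 ± 0.16 and 1.11 ± 0.14 (largest adjusted p = 6.55e-05). These 6 calls held on leaving out any single array and without the arrays of high 18S signal. Quantile normalisation of the centred values gave 1427256_at larger rises, 2.38 with TSG-6 and 2.55 with TSG-6 and HA. This alternative scaling makes the spread of the values equal on all arrays. Before it their interquartile range ran from 0.20 to 0.41, so the larger sizes cannot be read as a stronger effect. By group mean in knockout-labelled cultures, the order was untreated, TNFa, HA, LPS, TSG-6 and TSG-6 with HA, and the single step larger than the SD of its neighbours lay between LPS and TSG-6.

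With HA alone the leading Vcan probe set was at -0.16, 0.31, -0.43 and 0.037, a fold change of 0.39 ± 0.17 (adjusted p = 0.749), and with LPS at 0.29, 0.57, -0.037 and -0.23, a fold change of 0.60 ± 0.17 (adjusted p = 0.0904). The LPS change passed with the array set as a block (adjusted p = 0.0338). In wild-type cultures Vcan stood at 0.60 and 0.77 with TSG-6 and 0.82 and 0.67 with TSG-6 and HA, against -0.22, -0.24, -0.57, 0.37 and 0.30 untreated. The treated values lay above the untreated ones, but the fold changes of 0.76 ± 0.23 and 0.82 ± 0.23 did not pass (adjusted p = 0.469 and 0.147). The difference between the genotypes was 0.76 ± 0.30 with TSG-6 (95% interval 0.16 to 1.37, adjusted p = 1) and 0.75 ± 0.29 with TSG-6 and HA (95% interval 0.17 to 1.34, adjusted p = 0.622). Within the wild-type sets, 1 TSG-6 array each, the change was 0.94 in set a and 0.44 in set b.

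The other 5 Vcan probe sets, 1433043_at, 1433044_at, 1447586_at, 1447887_x_at and 1459767_x_at, were called in no comparison, and their SD over the 42 arrays was 0.14 to 0.27. Their largest change was 0.42 in size (1459767_x_at) and their smallest adjusted p 0.0626. The ending _x_at marks probe sets whose probes may also bind other transcripts. The 3 responsive probe sets correlated with one another at Pearson r of 0.835 to 0.91 and with these 5 at -0.265 to 0.432 over the 42 arrays. The TSG-6 rise of Vcan was thus read from 3 of its 8 probe sets, and which transcripts of the gene each one covers was not examined.

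The Vcan upstream sequence is shown as that of the member with the largest rise after TSG-6 in knockout-labelled cultures. It covers the 250 bases before the RefSeq start, on the - strand at chr13:89742513-89742762 in GRCm38.p6.
Vcan: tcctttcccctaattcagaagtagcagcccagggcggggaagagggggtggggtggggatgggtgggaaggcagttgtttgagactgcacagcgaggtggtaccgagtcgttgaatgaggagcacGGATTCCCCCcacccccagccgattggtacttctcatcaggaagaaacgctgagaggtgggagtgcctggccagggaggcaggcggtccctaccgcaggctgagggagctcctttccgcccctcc
The capitals mark the NF-kB letters at bases -125 to -116, on the opposite strand, and the window holds none of the AP-1, C/EBP or STAT letters.

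Hapln1, the link protein that locks proteoglycans onto hyaluronan, rose with TSG-6 in knockout-labelled cultures and not at the threshold in wild-type ones. Its leading probe set 1438020_at stood at 1.85, 1.69 and 1.43 with TSG-6 against -0.22 to 0.84 (median 0.11) untreated, a rise of 1.46 ± 0.32 (2.74-fold, adjusted p = 0.00604). All 3 TSG-6 arrays lay above the 8 untreated ones. A further 2 probe sets rose, 1426295_at by 1.28 ± 0.25 (adjusted p = 0.00157) and 1421633_a_at by 0.99 ± 0.17 (adjusted p = 0.000431), and 1426294_at stood at 0.77 ± 0.27 (adjusted p = 0.116). The calls of 1438020_at and 1426295_at were lost without replicate 1 of TSG-6, and that of 1438020_at also without the arrays of high 18S signal (1.40, adjusted p = 0.0711). Under quantile normalisation of the centred values, which makes the spread of all arrays equal, the 3 rises with TSG-6 were 2.55, 2.20 and 1.69. With TSG-6 and HA, 1426295_at alone was called (0.76 ± 0.23, adjusted p = 0.0345), and quantile normalisation gave it 1.31. It was lost on leaving out any 1 of 5 arrays and without the arrays of high 18S signal (0.61, adjusted p = 0.421).

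In wild-type cultures the leading Hapln1 probe set stood at -1.37 and -1.22 with TSG-6 against -1.25, -1.33, -1.30, -1.51 and -1.84 untreated. Of the 2 treated values 1 lay inside the untreated range and 1 just above it, with a fold change of 0.15 ± 0.40 (95% interval -0.66 to 0.96, adjusted p = 1). The genotypes differed in this response by 1.30 ± 0.51 for 1438020_at (95% interval 0.26 to 2.35, adjusted p = 1) and by 1.38 ± 0.40 for 1426295_at (95% interval 0.57 to 2.18, adjusted p = 0.61). Neither difference passed after adjustment. With LPS the knockout-labelled values were 1.41, 1.59, 0.53 and -0.59, high in the 2 arrays of set a and lower in the 2 of set b, and with HA they were -0.26, 1.60, -0.46 and 0.24, with replicate 2 far above the rest.

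Ptx3, a pentraxin that cross-links hyaluronan together with TSG-6, rose with TNFa by one of its 2 probe sets. The leading probe set 1418666_at stood at 0.47, 0.51, 0.62 and 0.82 with TNFa in knockout-labelled cultures, against -0.77 to 0.17 (median -0.067) untreated, and the groups did not overlap. It rose by 0.76 ± 0.23 (1.69-fold, adjusted p = 0.0308). The call was lost on leaving out any 1 of the 4 TNFa arrays or of 2 untreated ones, and without the arrays of high 18S signal (0.66, adjusted p = 0.0983). In wild-type cultures it stood at -0.024 and -0.82 with TNFa against -1.41, -0.99, -0.81, -1.66 and -1.79 untreated. Here the 2 array sets differed in level, and the change was 1.05 in set a and 0.91 in set b. Its fold change of 0.91 ± 0.32 did not pass (adjusted p = 0.229), and passed with the array set as a block (1.01 ± 0.18, adjusted p = 0.000317).

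The other Ptx3 probe set, 1456903_at, did not follow over both array sets. With TNFa its fold change in knockout-labelled cultures was -0.009 ± 0.20, but it was 0.58 in set a and -0.59 in set b. There 1418666_at gave 0.73 and 0.78. With TSG-6 and HA the fold change of 1456903_at was -0.59 ± 0.20 (adjusted p = 0.0786) where 1418666_at gave 0.44 ± 0.23 (adjusted p = 0.326). With the array set as a block both of these opposite changes passed (adjusted p = 0.0429 and 0.0273). The 2 probe sets correlated at Pearson r = 0.598 over the 42 arrays, and gave opposite signs with TSG-6 and HA.

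**Figure D3:**
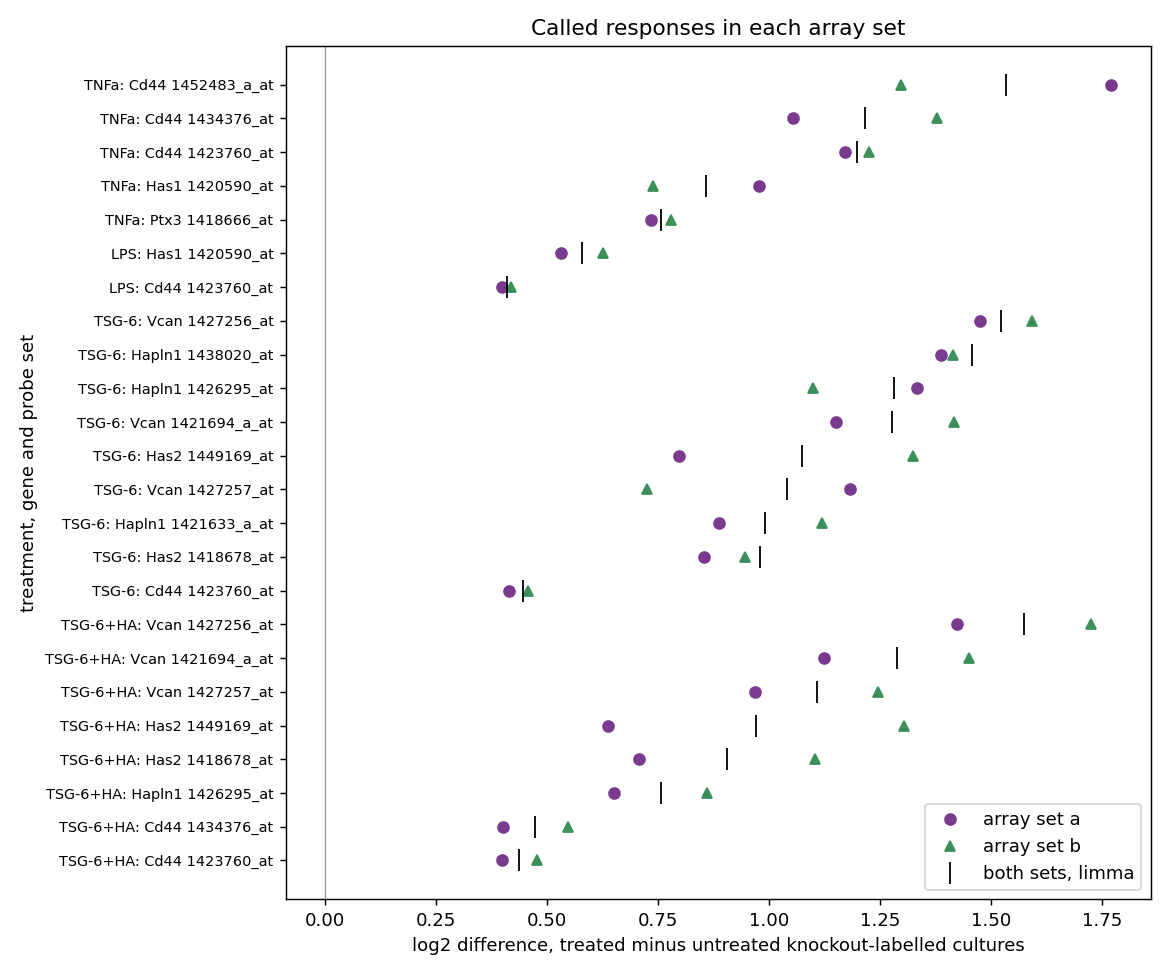
The 24 called treatment responses of knockout-labelled cultures, each given as the log2 difference of treated minus untreated means (horizontal axis) in array set a (purple circles), in array set b (green triangles) and in the fit over both (black ticks). All 48 within-set differences are above 0, and the largest gap between the sets is in Has2 1449169_at with TSG-6 and HA, at 0.64 in set a and 1.30 in set b.

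Adding HA to TSG-6 made no called difference to these genes. Of the 24 probe sets 0 differed between TSG-6 with HA and TSG-6 alone in knockout-labelled cultures by the limma threshold, with 1 at an unadjusted p under 0.05, and 0% of all probe sets were called. For the leading Vcan probe set the difference was 0.053 ± 0.21 (95% interval -0.38 to 0.48) and for the leading Has2 probe set -0.076 ± 0.27 (95% interval -0.63 to 0.48). The wild-type comparison likewise called 0 of 24, none at an unadjusted p under 0.05, beside 0% of all. Against HA alone, TSG-6 with HA raised 4 of 24 in knockout-labelled cultures (1.16% of all), namely the 3 responsive Vcan probe sets and Has2 1449169_at. Vcan 1427256_at stood at 1.12, 0.88, 1.33 and 1.18 with TSG-6 and HA, all above -0.16, 0.31, -0.43 and 0.037 with HA, a difference of 1.19 ± 0.20 (2.28-fold, adjusted p = 0.000551). The Has2 difference of 0.96 ± 0.25 (adjusted p = 0.0453) sat at the threshold and was lost on leaving out any 1 of 17 arrays. In wild-type cultures 0 of 24 were called (3 at an unadjusted p under 0.05, 0.00222% of all called).

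Between the genotypes, the matrix proteins Hapln1 and Ptx3 were higher and the synthase Has2 lower in knockout-labelled than in wild-type cultures, with Ptx3 1418666_at turning sign under cyclic loess in 3 of the 6 conditions and Hapln1 1421633_a_at losing its call in 5. In untreated cultures 12 of 24 probe sets were called where 28.6% of all were (15.1% higher, 13.5% lower), 6 higher (the 4 of Hapln1 and the 2 of Ptx3) and 6 lower (the 2 of Has2, 2 of Vcan, Has3 and Cd44 1452483_a_at). With TNFa 7 were higher and 2 lower, where 16.3% of all were called (8.82% higher, 7.46% lower), and with LPS 5 were higher and 1 lower, where 16.2% were called (8.45% higher, 7.74% lower). With TSG-6 6 were higher and 1 lower (12.6% of all called, 6.37% higher and 6.2% lower), with HA 6 were higher and 2 lower (15.8% of all called, 8.52% higher and 7.24% lower), and with TSG-6 and HA 5 were higher and 1 lower (14.5% of all called, 7.6% higher and 6.87% lower). These comparisons are between cultures that also differ in cell type markers. The mean over the 8 endothelial markers, in which Lyve1 is itself a hyaluronan receptor, lay between -1.59 and 0.25 on the knockout-labelled arrays and between 3.54 and 4.48 on the wild-type arrays, with all 8 lower in each condition. That over the 7 chondrocyte markers lay between -0.079 and 0.43 on the knockout-labelled arrays and between -1.17 and -0.75 on the wild-type arrays, with 3 of 7 higher and none lower in each condition. Of the 12 fibroblast markers 5 were higher and 3 lower in untreated cultures. The part of these cells in the genotype differences was not tested, fewer cells of a type and less RNA per cell cannot be told apart in such cultures, and genotype and source of the cultures cannot be told apart.

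Hapln1 1438020_at stood at -0.22 to 0.84 (median 0.11) in the 8 untreated knockout-labelled cultures, against -1.25, -1.33, -1.30, -1.51 and -1.84 in wild-type ones, a difference of 1.64 ± 0.27 (3.13-fold, adjusted p = 7.49e-06). The groups did not overlap there or in any of the treated conditions, where the difference ran from 1.19 ± 0.41 with TNFa to 2.95 ± 0.44 with TSG-6. All 4 Hapln1 probe sets were called in all 6 conditions, and 1421633_a_at gave 1.77 ± 0.15 untreated (3.41-fold, adjusted p = 2.41e-12). Both knockout-labelled sets lay above both wild-type sets, with untreated means of 0.38 and 0.016 in knockout-labelled sets a and b and -1.29 and -1.67 in wild-type sets a and b for 1438020_at. These differences changed with a rescaling of the centred values, which hold no signal level. Under cyclic loess 1421633_a_at gave 0.016 untreated (adjusted p = 0.969), 0.22 with TNFa and 0.46 with HA, and its call was lost in 5 of the 6 conditions. The leading probe set fell to 0.81 untreated (adjusted p = 0.0255) under it, and its calls were lost with TNFa (0.38) and with HA (1.00). Quantile normalisation ended the untreated call of 1426295_at (adjusted p = 0.079). Without the arrays of high 18S signal, which leaves 1 wild-type array with TNFa, the TNFa calls of 1438020_at (0.65), 1426294_at (0.96) and 1426295_at (0.95) were lost. So were those of 1426295_at with LPS (1.22) and with TSG-6 and HA (1.70). A fit of only the groups compared lost the HA calls of 1426294_at, 1426295_at and 1438020_at. With TNFa the calls of 1426295_at and 1438020_at were lost on leaving out replicate 1, 2 or 4 of the knockout-labelled or either of the wild-type arrays, and that of 1426294_at without replicate 2 of wild-type TNFa.

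Ptx3 1418666_at stood at -0.77 to 0.17 (median -0.067) in untreated knockout-labelled cultures, against -1.41, -0.99, -0.81, -1.66 and -1.79 in wild-type ones, a difference of 1.18 ± 0.22 (2.27-fold, adjusted p = 3.77e-05). It was called higher in all 6 conditions, between 1.03 with TNFa and 1.52 with HA. Each of the 5 treated calls was lost without replicate 2 of the wild-type cultures of that treatment, and those with TNFa and LPS also without knockout-labelled arrays (replicate 4 with TNFa, replicate 1, 3 or 4 with LPS). Its direction turned under cyclic loess in 3 conditions. There the difference was -0.20 untreated, -0.32 with TNFa and -0.37 with LPS, none past the threshold. In the other 3 conditions it was 0.20, 0.11 and 0.14. That scaling was run on the centred values, which hold no signal level to scale along, so it cannot settle the direction. Without the arrays of high 18S signal the difference was 0.56 with TNFa, 0.69 with LPS, 0.90 with HA and 0.64 with TSG-6 and HA, and these 4 calls were lost. The other Ptx3 probe set, 1456903_at, gave 0.96 ± 0.19 untreated (adjusted p = 0.000113) and was called with TNFa, TSG-6 and HA as well, the TSG-6 and HA calls being lost on leaving out single arrays.

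Has2 1418678_at stood at -1.25 to 0.040 (median -0.48) in untreated knockout-labelled cultures, against 0.25, 0.42, 0.25, 0.42 and 0.56 in wild-type ones, with no overlap. The difference was -0.89 ± 0.20 (1.85-fold lower, adjusted p = 0.000665), and 1449169_at gave -0.97 ± 0.20 (adjusted p = 0.000218). In the treated conditions the leading probe set was lower by a like amount, from -0.91 with LPS to -0.78 with HA, and passed with TNFa and LPS. These 2 treated calls were lost on leaving out any 1 of 4 arrays each (replicate 2, 3 or 4 of knockout-labelled or 1 of wild-type TNFa, replicate 3 or 4 of knockout-labelled or either of wild-type LPS). Knockout-labelled cultures with TSG-6 averaged 0.47 ± 0.57 (SD, n = 3), beside 0.38 ± 0.13 (SD, n = 5) in untreated wild-type cultures. Replicate 1 stood at 1.12, while replicates 2 and 3, at 0.13 and 0.15, lay below every untreated wild-type array. Wild-type cultures with TSG-6 stood at 1.51 and 1.03.

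Has3 differed by -0.51 ± 0.14 (adjusted p = 0.00581), Vcan 1421694_a_at by -0.70 ± 0.15 (adjusted p = 0.000401) and Cd44 1452483_a_at by -0.55 ± 0.18 (adjusted p = 0.0211), all lower in untreated knockout-labelled cultures. The Cd44 call was lost without replicate 4 of the untreated knockout-labelled cultures, without replicate 4 or 5 of the untreated wild-type cultures, and without the arrays of high 18S signal. For Vcan 1421694_a_at the genotypes were not called apart with TSG-6 (-0.062 ± 0.25, 95% interval -0.56 to 0.44) or with TSG-6 and HA (-0.15 ± 0.23, 95% interval -0.62 to 0.32). The leading Vcan probe set 1427256_at was called between the genotypes in no condition. With TSG-6 it stood at 1.32, 0.78 and 1.12 in knockout-labelled and 0.60 and 0.77 in wild-type cultures. With TSG-6 and HA it stood at 1.12, 0.88, 1.33 and 1.18 against 0.82 and 0.67. Has1 differed by 0.91 ± 0.21 with TNFa (adjusted p = 0.00131), where it stood at 1.27, 0.49, 0.71 and 0.39 in knockout-labelled and -0.18 and -0.20 in wild-type cultures, and was called in no other condition. Hyal2 was lower in knockout-labelled cultures with TNFa (-0.34 ± 0.10), TSG-6 (-0.34 ± 0.11) and TSG-6 with HA (-0.40 ± 0.10), and all 3 calls were lost without the arrays of high 18S signal, with a smaller difference for TNFa (-0.19, adjusted p = 0.557) and somewhat larger ones for TSG-6 (-0.38, adjusted p = 0.0607) and TSG-6 with HA (-0.47, adjusted p = 0.0963). That fit holds 1 wild-type array with TNFa and 1 with TSG-6 and HA, assumed to vary like the other groups. The 3 calls were also lost on leaving out single arrays (replicate 4 of knockout-labelled or 2 of wild-type TNFa, replicate 1 or 3 of knockout-labelled or 2 of wild-type TSG-6, and replicate 1 of wild-type TSG-6 with HA). The pair listed with both Naa80 and Hyal1 was higher in untreated knockout-labelled cultures, by 0.66 ± 0.082 for 1419213_at and 0.67 ± 0.093 for 1449954_at (largest adjusted p = 3.43e-07). Over the 6 conditions, 48 of 144 pairs of probe set and condition were called, and 30 without the arrays of high 18S signal.

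**Figure D4:**
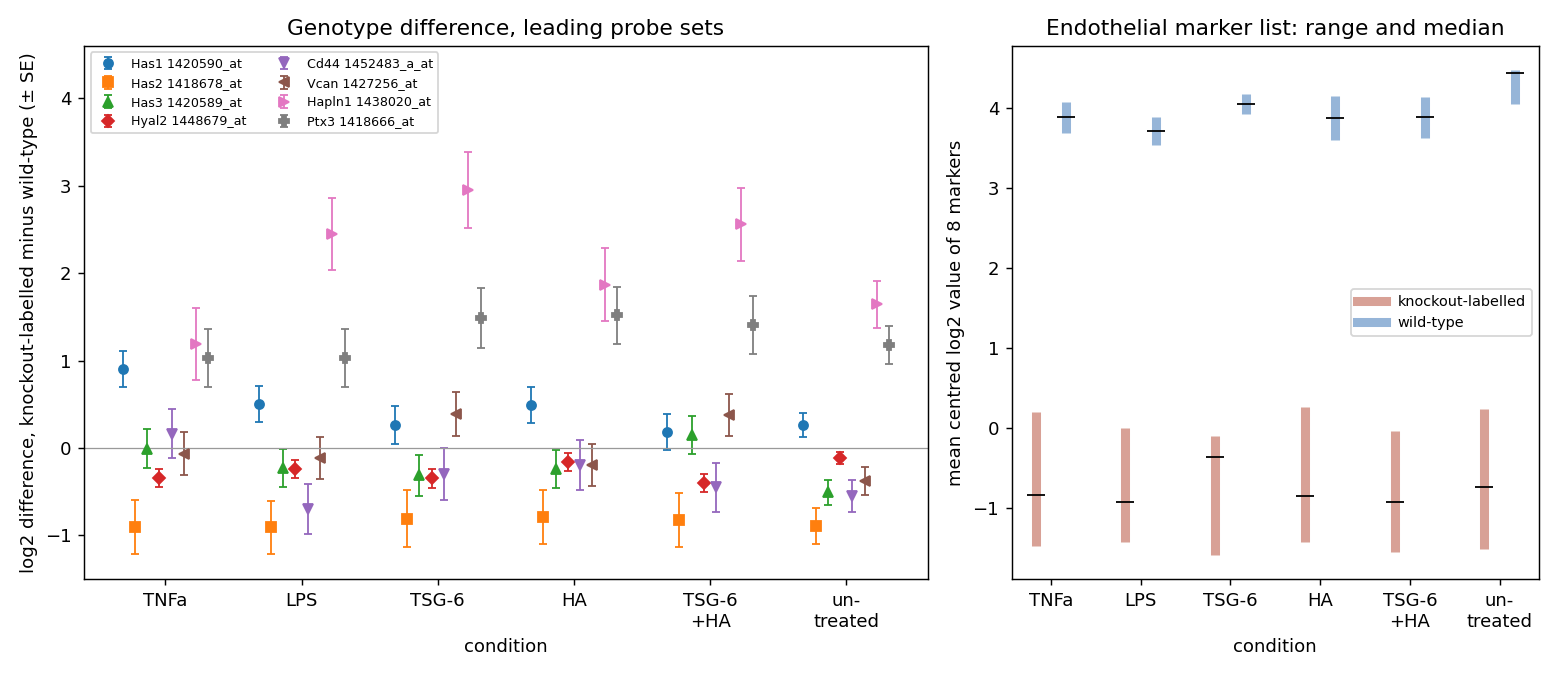
Left, the log2 difference of knockout-labelled minus wild-type cultures (vertical axis, ± SE) for the leading probe set of 8 genes in each condition (horizontal axis). Right, the range (bar) and median (tick) over arrays of the mean centred log2 value of 8 endothelial markers in each condition. Hapln1 and Ptx3 lie above 0 and Has2 below 0 throughout (under cyclic loess Ptx3 falls below 0 in 3 conditions), while the endothelial list stands apart between the genotypes in each condition.

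No treatment response of these genes was shown to differ between the genotypes. Of 120 pairs of probe set and treatment, limma called 0, with 11 at an unadjusted p under 0.05. The shares of all probe sets called were 0.475% for TNFa, 0.0999% for LPS, 0.0133% for TSG-6, 0.00888% for HA and 0.091% for TSG-6 with HA. The smallest adjusted p was 0.524, for Has1 with TNFa. Quantile normalisation called 2 of the 120. With 2 wild-type arrays per treatment the intervals were wide, and a p above the threshold does not show that the responses were alike.

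Other genes of hyaluronan biology were counted over 6 lists, with 1 probe set per gene. Of 7 enzymes that make the sugar precursors, 3 rose with TSG-6 in knockout-labelled cultures and none fell (4.38% of all genes were called, counted with 1 probe set per gene), with a median change of 0.29 over the list, beside -0.0045 over all genes. Pgm3, which makes an intermediate of UDP-N-acetylglucosamine, rose by 0.65 ± 0.11 (adjusted p = 0.000237), and Gfpt2, which catalyses the first step of that route, by 0.80 ± 0.17 (adjusted p = 0.00335). With TSG-6 and HA, where 8.86% of all genes were called, 3 of the 7 rose as well, Pgm3 by 0.58 ± 0.098, Gfpt2 by 0.85 ± 0.15 and Gfpt1 by 0.36 ± 0.11. With TNFa, where 13% of all genes were called, Gfpt2 rose (0.47 ± 0.15) and Ugp2, which makes UDP-glucose, fell (-0.39 ± 0.12). No enzyme of this list was called in wild-type cultures with any treatment. Of the 6 ADAMTS proteases that cut versican, 1 rose in knockout-labelled cultures with each of TNFa, LPS (1.54% of all genes called), TSG-6 and TSG-6 with HA, and it was Adamts4 each time.

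Adamts4 rose by 2.12 ± 0.15 with TNFa (adjusted p = 8.01e-13), 0.74 ± 0.15 with LPS, 1.00 ± 0.17 with TSG-6 and 1.01 ± 0.15 with TSG-6 and HA in knockout-labelled cultures, and by 0.77 ± 0.21 with TNFa in wild-type cultures (adjusted p = 0.0491). Its TNFa response was larger in knockout-labelled cultures, by 1.34 ± 0.26 (adjusted p = 0.00656), and its untreated level was lower there (-1.09 ± 0.14). Among 7 other hyaluronan receptors, TNFa raised Tlr2, a sensor of bacterial lipoproteins that also responds to hyaluronan fragments, by 1.58 ± 0.14 in knockout-labelled and 1.76 ± 0.19 in wild-type cultures, and Layn, a cell surface lectin, by 0.61 ± 0.13 in knockout-labelled ones. LPS raised Tlr2 in wild-type cultures by 1.19 ± 0.19. In wild-type cultures 2.44% of all genes were called with TNFa and 1.07% with LPS. Of 9 other link-module and hyaluronan-binding proteins, the proteoglycan Bcan rose with TSG-6 (0.61 ± 0.17) and Bcan (0.77 ± 0.15) and the link protein Hapln4 (0.50 ± 0.16) rose with TSG-6 and HA, in knockout-labelled cultures. Of 6 other genes of hyaluronan breakdown, Cemip2, a cell surface hyaluronidase of the mouse, rose with TNFa there (0.69 ± 0.13), and the 6 inter-alpha-inhibitor chains were called with no treatment.

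Between untreated genotypes 36.2% of all genes were called, counted with 1 probe set per gene, and the list counts that follow stand beside that share. The 7 other receptors had 4 lower and 1 higher, with Lyve1 at -7.23 ± 0.19, Stab1 at -6.18 ± 0.20 and Tlr2 at 1.63 ± 0.13. Lyve1 is among the endothelial markers, and Stab1 and Stab2 (called lower too) are scavenger receptors of the endothelium that lines sinusoids. Of the breakdown genes 2 were higher and 1 lower, with Cemip, which cuts hyaluronan outside the cell, at 3.18 ± 0.32 and Cemip2 at -1.43 ± 0.12. Of the 6 inter-alpha-inhibitor chains, Itih5 (3.65 ± 0.40) and Itih2 (1.95 ± 0.20) were higher and none was lower. Among the 6 ADAMTS proteases 1 was higher and 2 were lower, with Adamts5 at 1.44 ± 0.21 and Adamts9 at -2.67 ± 0.17. The sugar-precursor enzymes had 2 higher and 1 lower, with Gfpt2 at -1.13 ± 0.14, and the link-module list 1 higher and 1 lower. The endothelial and chondrocyte values given above stand beside all of these, and their part was not tested.

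The genes whose values followed those of a member most closely over the 42 arrays were taken as the 3 highest Pearson correlations among 18192 other genes. For Has2 these were Ivns1abp (r = 0.894), Pmepa1 (r = 0.878) and the metalloprotease Adam12 (r = 0.872). For Vcan they were the collagen chain Col5a2 (r = 0.887), Plpp5 (r = 0.845) and the transcription factor Bhlhe40 (r = 0.844), and for Cd44 they were Thg1l (r = 0.87), the proteasome subunit Psmd8 (r = 0.848) and Eif6 (r = 0.844). Hapln1 was followed by Ptchd4 (r = 0.921), Plcb1 (r = 0.912) and the interleukin-13 receptor chain Il13ra2 (r = 0.911). Ptx3 was followed by the sterol enzyme Ch25h (r = 0.951), the amino acid transporter Slc7a2 (r = 0.95) and complement factor B, Cfb (r = 0.949). For Has1 they were the BMP antagonist Nog (r = 0.809), Rcan1 (r = 0.807) and Apip (r = 0.785), and for Hyal2 and Has3 the closest were Ube2v1 (r = 0.831) and Stac (r = 0.697). The arrays share genotype, treatment and array set, so these values only describe likeness of pattern.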

How the data were processed

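One-colour Affymetrix arrays measured 42 cultures in 12 groups. The deposited log2 values come from RMA (version not given), per the submitters' processing notes, and the table holds each probe set centred on its median over the arrays. The sources used here name no log base, which was read as 2, since base e would make the largest range of a probe set 14.15 doublings. Per-array signal over background is not in the values used here, and precision is limited by the number of arrays.

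Of 45101 probe sets, 64 controls were left out. Symbols came from the platform annotation, in which 34945 probe sets have 1 gene, 932 several and 9160 none. limma 3.58.1 in R 4.3.3 fitted 1 mean per group over all arrays (eBayes without trend, 30 residual and 4.641 prior degrees of freedom), and p-values were adjusted by Benjamini-Hochberg over 45037 probe sets in each of 25 comparisons. The fit was tested on simulated data. The leading probe set of a gene is that with the largest SD, other genes of the pathway lists were named for the 2 smallest adjusted p-values of a list in a comparison described, and Gfpt1, Stab2 and Adamts5, and Tlr2 between genotypes, were named after their values were seen. The members and lists were chosen with earlier results of these data known, as were the array sets and the 18S criterion. Alternatives were quantile and cyclic loess normalisation, other sets of probe sets, robust eBayes, only the groups compared, replicate number or array set as a block, leaving out arrays of high 18S signal, and leaving out each array. Both normalisations were run on the centred values, so they acted on deviations from the median and not on signal levels.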

Additional observations from a re-analysis of the deposited data

Results flagged for a closer look

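Within the groups of 4 to 8 knockout-labelled arrays and the 5 untreated wild-type arrays, 6 of 144 sets of values held 1 array far from the others, where chance alone sets apart about 1 in 20. Has1 stood at 0.3651 on replicate 1 with TSG-6 and HA, above a next highest 0.1366. Untreated replicate 8 held the highest Has3 value of its group, 0.3583, with the next at -0.12. With TNFa, Cd44 1443265_at was 0.184 on replicate 1 (next -0.01296), Vcan 1421694_a_at was -0.1671 on replicate 4 (next -0.5059) and Vcan 1447586_at was 0.3953 on replicate 2 (next -0.01054). Ptx3 1418666_at was lowest with LPS on replicate 2, at -0.03022, with the next lowest at 0.2687. All 6 arrays are knockout-labelled, and Cd44 1443265_at and Vcan 1447586_at are probe sets with no called change.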

How the results depend on the processing

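Calls are counted over pairs of probe set and comparison, 24 for treatments in knockout-labelled cultures, 2 in wild-type cultures, 48 between genotypes, 0 for differences in response and 4 for combined against single treatment. With 1 probe set per gene, which leaves 1 of each gene's probe sets, these were 11, 0, 21, 0 and 1. Quantile normalisation left 1 wild-type call and gave 2 for differences in response, and a fit of only the groups compared left 1 wild-type call. Without the arrays of high 18S signal 30 calls between genotypes were made, on fewer arrays. Leaving out single arrays gave 19 to 27, 1 to 2, 42 to 52, 0 to 0 and 3 to 5 calls, lowest without replicate 1 of TSG-6 in knockout-labelled and of TNFa in wild-type cultures. Under cyclic loess Ptx3 1418666_at turned to -0.198522 untreated, -0.320035 with TNFa and -0.366948 with LPS between genotypes, and the cause was not tested. Of the 78 called pairs, quantile normalisation kept 64, cyclic loess 59, robust eBayes 75, only the groups compared 63, the array set as a block 77 and the arrays of lower 18S signal 53, while the tests over probe sets of 1 gene and without the least variable probe sets kept all 78. Deviations from the group means were correlated between same-numbered cultures. Between treated wild-type cultures r was 0.331 to 0.646. There the 2 numbers are also array sets a and b, and with 2 arrays per group differing numbers mirror these values, at -0.646 to -0.331. Between treated knockout-labelled cultures r was over 0.1 in 26 of 36 pairs. With untreated cultures it was over 0.1 in 7 of 19 knockout-labelled and 4 of 10 wild-type pairs, so the numbers do not establish pairs. The numbers also cross the array sets, since wild-type replicate 2 lay in set a untreated and in set b with each treatment. A block by number therefore joins arrays of different sets and cannot check pairing. With the replicate number as a block the counts were 24, 7, 54, 0 and 5, and 73 of the 78 pairs kept their call. The other 5 were all in knockout-labelled cultures. With TSG-6 they were both Has2 probe sets, Cd44 1423760_at and Hapln1 1438020_at, and with TSG-6 and HA Hapln1 1426295_at. With TSG-6 the block gave 6 calls there, where the fit without a block gave 9, and not all of these 6 were among the 9. The values carry no signal over background, so what dim probes limit was not examined.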

Other observations

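The link protein Hapln1 varied widely among the knockout-labelled cultures with HA and with LPS, where its probe set 1438020_at had an SD of 0.93 and 1.00, the largest among the 24 in those 2 groups. With HA, replicate 2 was the highest of the 4 arrays on all 4 Hapln1 probe sets, at 0.97 on 1421633_a_at, 1.32 on 1426294_at, 1.56 on 1426295_at and 1.60 on 1438020_at, while the other 3 arrays lay between -0.46 and 0.47. With LPS the 2 arrays of set a were the highest on all 4 probe sets, and on 1438020_at the 4 arrays ran from -0.59 to 1.59.

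Untreated levels of several members differed between the array sets of 1 genotype. The sets were found from gaps in these same values, so a distance between them in cell type markers is not independent of how they were found. They stood apart in such markers and in 18S signal. The mean over the 8 endothelial markers lay between -0.58 and 0.25 in knockout-labelled set a and between -1.59 and -1.28 in set b, and that over the 6 pericyte or smooth muscle markers had medians of 0.33 and -0.35. All 5 wild-type arrays of high 18S signal were among the 7 of set b, with none among the 8 of set a, while knockout-labelled sets a and b held 4 and 6. Their part in the levels was not tested. Has2 1418678_at averaged -0.23 in set a and -0.80 in set b of knockout-labelled cultures, and 0.30 in set a and 0.49 in set b of wild-type cultures. Ptx3 1456903_at averaged 0.15 and 0.80 in knockout-labelled sets a and b, against -0.20 and -0.92 in wild-type sets a and b. Vcan 1427256_at averaged -0.43 and -0.47 in the knockout-labelled sets, while the wild-type sets stood at -0.34 and 0.34, so that the wild-type cultures of set b were the ones apart.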
